A study of Mus musculus with 2 samples.

Results

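The period genes Per1, Per2 and Per3, the cryptochrome genes Cry1 and Cry2, and Timeless were examined in the suprachiasmatic nucleus (SCN), the brain's master clock in the hypothalamus. They were taken by symbol from the deposited expression table, and all 6 were found among its 24229 genes. Poly-A RNA had been sequenced from SCN tissue of wild-type C57BL/6 mice at postnatal day 68. One library came from mice entrained for 4 weeks to a short light-dark cycle (ST) and 1 from mice entrained to a normal cycle (NT), and both groups were then kept in constant darkness for 5 days and sampled at circadian time (CT) 4 h. The protocol names 16 mice, 8 in each group, all of which had first spent 7 days in darkness. The sources used here do not state the cycle lengths or how many mice contributed to a library. The series asks how light reprogrammes circadian behaviour. The comparison here asks whether the clock's repressor transcripts differed in level at CT 4 h after entrainment to the short cycle. Only 1 circadian time was sampled, so differences in the level, phase and amplitude of a rhythm cannot be told apart. A ratio near 1 likewise does not show an unchanged rhythm.

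In mammals, CLOCK and BMAL1 (the product of Arntl) bind E-box sequences and activate Per and Cry genes. PER and CRY proteins then enter the nucleus together and repress that activation, until they are phosphorylated, ubiquitinated and degraded, which closes the daily loop. In the SCN, Per1 and Per2 are also induced by light through CREB, and their transcripts are abundant in the subjective day, whereas those of Cry1 peak later. Timeless carries the name of a Drosophila clock gene, but in mammals its product is best known as a partner of TIPIN at the replication fork.

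The spread between mice cannot be estimated with 1 library per group, so no test was made and every difference is one between these libraries. The intervals given are 95% counting intervals. They cover counting error only, and reads that carry no molecular identifiers may be copies of one molecule. The ST library held 19476800 counts and the NT library 24790727. Levels are given in RPKM, counts per kilobase of gene and 1000000 counts as computed by the authors, and ratios as ST over NT of counts normalised by median-of-ratios size factors. Transcripts found in the SCN were present in both libraries. Avp was at 656 RPKM in ST and 563 in NT, and Vip at 168 in ST and 197 in NT. The SCN transcription factor Lhx1 was at 15.9 in ST and 16.4 in NT. Oxt, a neuropeptide of neighbouring hypothalamus, was at 812 RPKM in ST and 655 in NT, so the tissue was not SCN alone.

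The regulatory sequence around these genes' starts shows which known clock elements stand close to each. RefSeq windows of 300 bases (build GRCm38.p6, 250 before to 50 after a start) were matched for 5 of the 6 genes (not Per2). They are shown for Per1, whose ratio stood apart from those of its relatives, and for Cry1 and Per3, whose ratios did not. Sequences are written 5′ to 3′ on the gene's strand. Capitals mark exact matches, on either strand, to the E-box CACGTG, the E′-box CACGTT, the D-box TTATGTAA, its variant TTATGCAA and the CRE core TGACG, part of the CREB site.

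Per1, first start (chr11:69098699-69098998, plus strand): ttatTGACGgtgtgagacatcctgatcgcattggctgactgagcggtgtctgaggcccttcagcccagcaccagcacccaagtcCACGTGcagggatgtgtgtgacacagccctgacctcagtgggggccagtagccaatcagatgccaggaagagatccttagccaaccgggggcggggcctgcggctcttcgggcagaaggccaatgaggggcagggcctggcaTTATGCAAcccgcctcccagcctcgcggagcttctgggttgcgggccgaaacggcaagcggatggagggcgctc
Per1, second start (chr11:69099902-69100201, plus strand): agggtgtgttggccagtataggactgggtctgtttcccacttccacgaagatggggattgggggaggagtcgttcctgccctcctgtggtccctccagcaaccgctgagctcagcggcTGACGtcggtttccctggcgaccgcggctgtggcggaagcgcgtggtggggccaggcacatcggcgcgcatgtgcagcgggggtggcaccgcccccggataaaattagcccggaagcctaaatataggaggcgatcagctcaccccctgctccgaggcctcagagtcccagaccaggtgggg
Cry1 (chr10:85185005-85185304, minus strand): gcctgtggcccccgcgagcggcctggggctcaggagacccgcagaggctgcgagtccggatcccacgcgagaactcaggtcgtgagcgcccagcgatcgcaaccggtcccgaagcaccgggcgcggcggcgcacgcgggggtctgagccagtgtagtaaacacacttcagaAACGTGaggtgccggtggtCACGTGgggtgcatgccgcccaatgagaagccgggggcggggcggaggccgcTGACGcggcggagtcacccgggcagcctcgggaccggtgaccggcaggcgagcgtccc
Per3 (chr4:151044616-151044915, minus strand): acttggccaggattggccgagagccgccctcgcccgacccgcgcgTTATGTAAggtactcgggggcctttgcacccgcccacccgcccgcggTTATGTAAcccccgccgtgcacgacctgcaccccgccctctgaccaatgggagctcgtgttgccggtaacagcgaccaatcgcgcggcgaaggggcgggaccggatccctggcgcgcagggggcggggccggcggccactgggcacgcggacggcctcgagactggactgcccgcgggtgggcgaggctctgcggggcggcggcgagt

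At the first start of Per1, the E-box lay 166 bases upstream and the TTATGCAA variant 24 bases upstream, with a CRE core at 246 bases. The window at the second start held only a CRE core, 132 bases upstream. Cry1 held an E-box at 60 bases and an E′-box at 79 bases upstream, and a CRE core at 8 bases. Per3 held no E-box of these letters but a pair of D-boxes, the site of DBP, TEF, HLF and NFIL3, at 205 and 158 bases upstream. The window of Timeless held 1 D-box at 157 bases, and that of Cry2 an E′-box at 166 bases and a CRE core at 209 bases. Windows were matched by gene symbol. Whether the Timeless window lies at the gene's main start was not checked.

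For scale, 7.15% of all 32851 windows in the RefSeq table held the E-box, 4.68% the E′-box, 0.938% the D-box, 0.743% its variant and 20.8% a CRE core, which the full CRE TGACGTCA also contains (1.79% of windows). An E-box together with an E′-box, as at Cry1, was found in 0.414% of windows, and at least 2 D-boxes, as at Per3, in 7 windows. The CpG dinucleotides, where DNA methylation occurs, numbered 16 and 21 in the first and second Per1 windows, 38 at Cry1, 41 at Per3, 30 at Cry2 and 5 at Timeless, against a median of 7 over all windows. A match to these letters is a description of the sequence and not of a bound site, and methylation itself was not analysed here.

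Among the 3 period genes, which encode the PAS-domain repressors of the loop, only Per1 had a counting interval clear of 1. Per1 (ENSMUSG00000020893, mm9 chromosome 11, 68908719 to 68923462, plus strand) had 3374 counts in ST and 3677 in NT, which is 30.9 RPKM in ST and 26.5 RPKM in NT. The count was lower in ST, the shallower library, and the level was higher in ST once scaled by depth. The ratio was 1.16-fold (interval 1.10 to 1.21), or 0.21 on the log2 scale. Among all 14343 measured genes, defined by a mean normalised count of 50 or more, 5.27% had a higher ratio than Per1. Counting error is smaller among the 5172 genes whose mean normalised count reached 1000. Of these, 29 had a ratio at least as high, Per1 itself included, and 88 were at least as far below 1.

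Per2 (ENSMUSG00000055866, mm9 chromosome 1, 93312561 to 93355907, minus strand) had 2901 counts in ST and 3678 in NT. Its level was 25.6 RPKM in ST and 25.5 RPKM in NT, and its ratio 0.995 (interval 0.948 to 1.05). Per3 (ENSMUSG00000028957, mm9 chromosome 4, 150377761 to 150418774, minus strand), a period gene that is dispensable for rhythms in darkness in mice, had 1275 counts in ST and 1636 in NT. This was 6.83 RPKM in ST and 6.88 RPKM in NT, with a ratio of 0.984 (interval 0.913 to 1.06). For neither gene did the libraries differ beyond counting error.

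The cryptochromes, which carry most of the repression of CLOCK and BMAL1, had ratios within counting error of 1. Cry1 (ENSMUSG00000020038, mm9 chromosome 10, 84594448 to 84647798, minus strand) had 1082 counts in ST and 1375 in NT, or 18.5 RPKM in ST and 18.5 RPKM in NT. Its ratio was 0.993 (interval 0.916 to 1.08). Cry2 (ENSMUSG00000068742, mm9 chromosome 2, 92243803 to 92274200, minus strand) had 2666 counts in ST and 3365 in NT, or 21.7 RPKM in ST and 21.5 RPKM in NT, with a ratio of 0.9999 (interval 0.950 to 1.05). Cry2 is the only one of the 6 genes with fractional counts. The annotated locus AL683814.1 overlaps it on the opposite strand for 23417 bases and had 45.8 counts in ST and 63.3 in NT. No source used here says whether the counting used strand, so reads of that locus and of Cry2 cannot be told apart with certainty.

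Timeless (ENSMUSG00000039994, mm9 chromosome 10, 127669121 to 127689997, plus strand) was the least abundant of the 6, with 138 counts in ST and 189 in NT. Its level was 1.16 RPKM in ST and 1.25 RPKM in NT. The ratio of 0.922 had the widest interval of the group, 0.735 to 1.15, so a difference inside that range was not detectable at this depth. Its partner Tipin was at -0.25 on the log2 scale (fold interval 0.711 to 0.997) and had fractional counts. Fractional counts, found for 42.5% of measured genes, may mean reads shared with another feature. Such features were looked for only at the 6 genes. Of 12 measured TIMELESS partners at the replication fork, 10 lay above 0 and 2 below on the log2 scale, with a median of 0.08. Tipin was the only one with an interval clear of 1, against 18% of all measured genes. The others included the helicase subunit Mcm6 (0.13, fold interval 0.960 to 1.25), the single-strand binding protein Rpa1 (-0.04, 0.907 to 1.04) and the sliding clamp Pcna (0.08, 0.918 to 1.22).

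**Figure D1:**
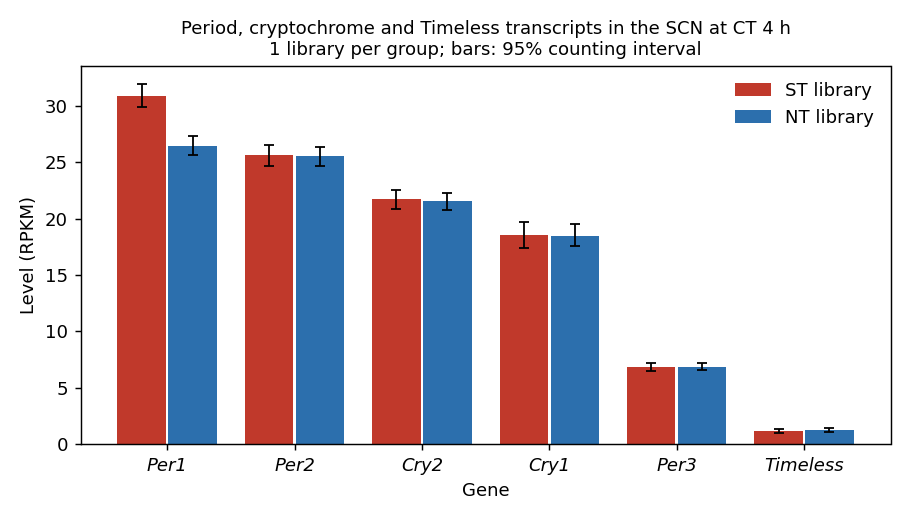
Level in RPKM (vertical axis, linear from 0) of the 6 genes in the ST and NT libraries, 1 library per group, with 95% counting intervals as error bars. Per1 stands at 30.9 RPKM in ST and 26.5 in NT, and the bars of each of the other 5 genes overlap between the libraries.

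Counted together, 1 of the 6 genes had an interval clear of 1, and none reached the 2-fold size rule. Over all measured genes, 18% had an interval clear of 1 (7.79% above 1 and 10.2% below), and 0.251% were at least 2-fold apart (0.0209% higher and 0.23% lower in ST). The count for the 6 genes is thus near the background and is no result about the group. The median log2 ratio of the 6 was -0.01 and that of all measured genes -0.00244, and the sign of the median of the 6 turned with library-total and pan-neuronal scaling (0.00399 and 0.000880). The authors' deposited table gives Per1 a fold change of 1.16 with a p-value of 0.101 and an adjusted p-value of 1. In the authors' deposited table the p-values of the other 5 genes run between 0.643 for Timeless and 0.996 for Cry2, all with an adjusted p-value of 1.

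**Figure D2:**
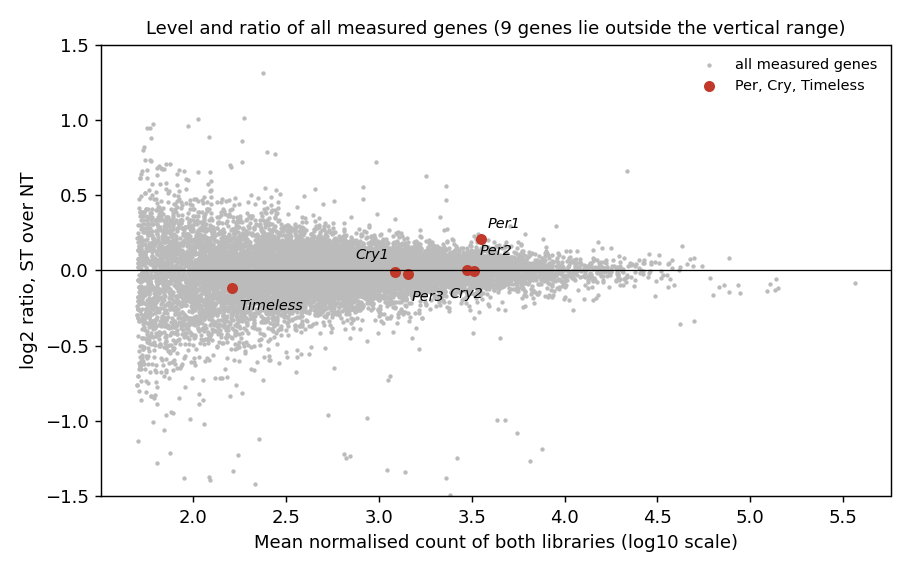
Mean normalised count (horizontal axis, log10 scale) against the log2 ratio of ST over NT (vertical axis) for the 14343 measured genes in grey and the 6 genes in red, 9 genes lying outside the vertical range. Per1 lies at 0.21, and the other 5 lie between -0.12 and 0.

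Whether the 6 genes differed from one another can be read without any scaling factor, since it cancels in the difference of 2 log2 ratios. All 15 pairs were compared. Per1 exceeded Per2 by 0.22 on the log2 scale (interval 0.12 to 0.32), Per3 by 0.24 (0.11 to 0.36), Cry1 by 0.22 (0.09 to 0.35) and Cry2 by 0.21 (0.11 to 0.31). These 4 intervals stayed clear of 0 when widened for 15 pairs, at their narrowest margin for Cry1 (0.02 to 0.42). All 4 contain Per1, so they repeat the same Per1 ratio and are not separate observations. The share of clear pairs among all measured genes was not computed. Of single measured genes, 18% had an interval clear of 1. The difference of Per1 and Timeless was 0.33 (0.01 to 0.65), and its widened interval held 0 (-0.16 to 0.81). The 10 pairs without Per1 all had intervals that held 0. Per2 and Cry2 were bounded most closely, with a difference of -0.01 (-0.11 to 0.10), followed by Per2 and Per3 at 0.02 (-0.11 to 0.14). The Cry1 to Cry2 difference was -0.01 (-0.15 to 0.13). All of these intervals leave out the spread between mice.

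**Figure D3:**
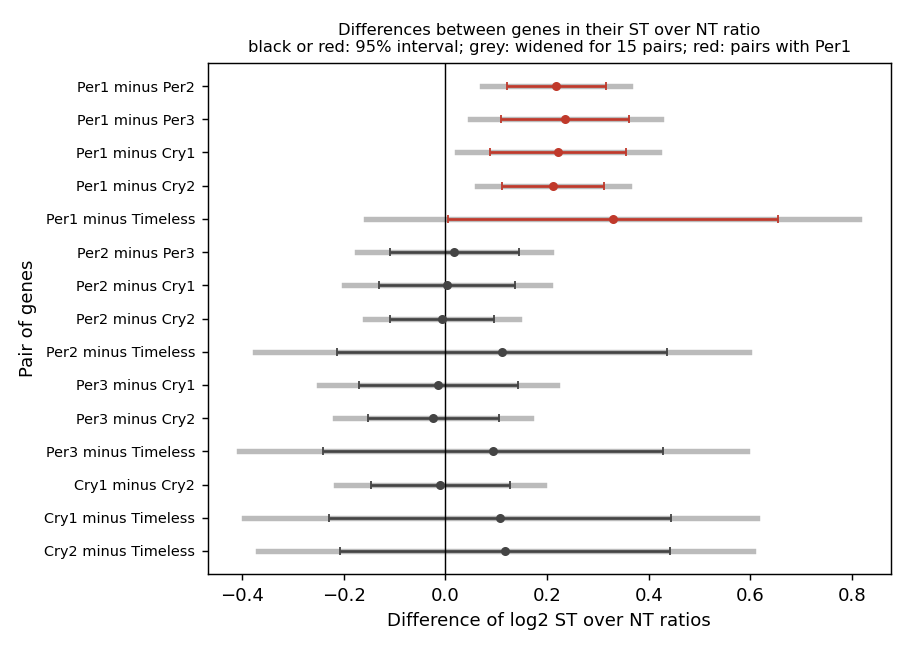
Difference between 2 genes in their log2 ST over NT ratio (horizontal axis) for all 15 pairs (vertical axis), with 95% counting intervals and, in grey, intervals widened for 15 pairs. The 4 pairs of Per1 with Per2, Per3, Cry1 and Cry2 lie clear of 0, and the 10 pairs without Per1 do not.

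Levels per length gave one order in both libraries, Per1, Per2, Cry2, Cry1, Per3 and Timeless from high to low. Per1 and Per2 were apart in ST, with a quotient of RPKM levels of 1.21 (interval 1.15 to 1.27), and not beyond counting error in NT, with 1.04 (0.990 to 1.09). The other neighbours in the order were apart in both libraries. Per2 stood over Cry2 by 1.18 in ST (1.12 to 1.24) and 1.19 in NT (1.13 to 1.24). Cry1 was at 0.853 of the level of Cry2 in ST (0.795 to 0.916) and 0.859 in NT (0.807 to 0.915). Per3 was at 0.369 of the level of Cry1 in ST and 0.372 in NT, and stood over Timeless by 5.87 in ST and 5.50 in NT. Within the measured genes, Per1 had a higher RPKM than 83.6% in ST and 80.6% in NT, Per3 than 40.4% in ST and 40.8% in NT, and Timeless than 5.65% in ST and 5.93% in NT. These levels rest on the gene lengths in the authors' RPKM, which were 5607 bases for Per1, 5814 for Per2, 9585 for Per3, 2999 for Cry1, 6307 for Cry2 and 6087 for Timeless. The union of annotated exons in GENCODE vM1, on the same mm9 assembly, is 5631 bases for Per1 and 3014 for Cry1.

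Summed by class, the 3 period genes held 63.3 RPKM in ST and 58.9 RPKM in NT, and the 2 cryptochromes 40.2 in ST and 40.0 in NT. The normalised ratio of the summed counts was 1.06 for the period genes (interval 1.03 to 1.09) and 0.998 for the cryptochromes (0.956 to 1.04). The value of the period genes came from Per1, since the ratios of Per2 (0.995) and Per3 (0.984) had intervals that held 1. The quotient of period over cryptochrome RPKM was 1.57 in ST and 1.47 in NT, 7.05% higher in ST, and rests on Per1 in the same way. Set against the activators Arntl, Clock and Npas2, whose summed level was 27.5 RPKM in ST and 26.1 in NT, the Per and Cry genes stood at a quotient of 3.77 in ST and 3.79 in NT.

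In the rest of the transcriptional loop, Npas2 and Nfil3 lay at least as far from 0 as Per1 on the log2 scale, as did 14.0% of all measured genes. All 4 measured activators had intervals that held 1, with log2 ratios of 0.06 for Arntl, 0.06 for Clock, 0.03 for Arntl2 and 0.26 for Npas2, which had 58 counts in ST and 61 in NT. Among the nuclear receptors that act on Arntl transcription, the repressor Nr1d1 was at 0.16 (fold interval 1.07 to 1.17) and the activators Rorb at 0.08 (1.002 to 1.11) and Rora at -0.15 (0.867 to 0.943). Among 6 other E-box and D-box factors, the repressor Nfil3 was at 0.36 (1.05 to 1.57), and the D-box activators Dbp at -0.16 (0.852 to 0.944) and Hlf at -0.09 (0.901 to 0.981), while Tef, Bhlhe40 and Bhlhe41 had intervals that held 1. Nr1d1, Rora, Dbp, Hlf, Clock and Bhlhe40 had fractional counts.

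**Figure D4:**
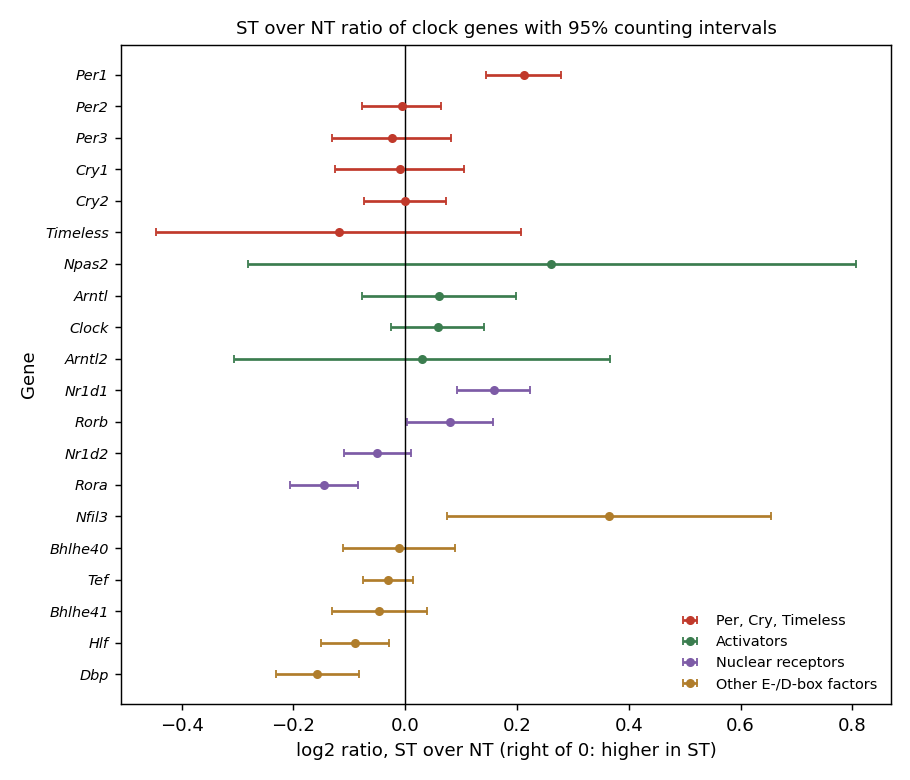
log2 ratio of ST over NT (horizontal axis) with 95% counting intervals for the 6 genes, the activators, nuclear receptors and other E-box and D-box factors (vertical axis). Of the 6 genes in red, Per1 alone lies clear of 0.

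Enzymes that set the stability of PER and CRY had intervals clear of 1 at a share near the 18% of all measured genes. Of 15 measured kinases and phosphatases, 1 had an interval above 1, the phosphatase Ppp5c at 0.12 (fold interval 1.02 to 1.15), and 2 below, Ppp1cb at -0.09 (0.910 to 0.973) and Csnk1a1 at -0.08 (0.911 to 0.983). The PER kinases Csnk1d (0.03, 0.982 to 1.06) and Csnk1e (-0.04, 0.912 to 1.04) had intervals that held 1. Of 11 measured ubiquitin ligase subunits and proteases, Fbxl21, an F-box protein of CRY, was at -0.23 (0.763 to 0.949) and the ligase subunit Rbx1 at 0.11 (1.005 to 1.15). The interval of Btrc, an F-box protein of PER, held 1 (0.02, 0.932 to 1.10). The 16 partners found in PER complexes had a median of -0.01, with 2 intervals above 1 and 3 below. Together these are a larger share than the 18% of all measured genes, though of few genes. Highest was Gnb2l1 (RACK1) at 0.13 (1.05 to 1.14) and lowest the NuRD subunit Mta2 at -0.15 (0.826 to 0.977). Csnk1d, Csnk1e, Ppp1cb, Gnb2l1 and Mta2 had fractional counts, as did Skp1a, Csnk2a1, Pcna, Avp, Jund and Uchl1 among the other genes named.

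By ratio, the measured gene nearest to Per1 among these 41 clock genes was Npas2, 0.05 away on the log2 scale, though on few counts. The nearest was Skp1a for Per2, Csnk2a1 for Per3, Bhlhe40 for Cry1 and Csnk2b for Cry2, each within 0.02. Likeness over 2 libraries is a statement about 1 ratio each.

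Transcripts of 3 further groups of genes, related to signals that act on Per1 and Per2 transcription, are given next. The signals themselves were not measured. Immediate early genes, like Per1, respond to light and neuronal activity through CREB and related factors. Of 18 measured, 12 had an interval above 1 and none below, with a median log2 ratio of 0.25. For scale, 7.79% of all measured genes had an interval above 1 and 10.2% below. Fos was at 0.63 (fold interval 1.45 to 1.66), with 1953 counts in ST and 1592 in NT, and Egr4 at 0.67 (1.16 to 2.19), while the abundant Jund was at 0.05 (0.983 to 1.10). Of 16 genes of the CREB pathway, 5 had an interval above 1 and 2 below, with a median of 0.06. Among the clear intervals, highest were the coactivator Crebbp at 0.26 (1.10 to 1.29) and the G protein Rasd1 at 0.21 (1.07 to 1.24). Lowest were the PACAP receptor Adcyap1r1 at -0.10 (0.913 to 0.959) and the kinase Mapk3 at -0.09 (0.885 to 0.991).

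Per1 is also induced by glucocorticoids. Of 16 measured glucocorticoid-responsive genes, 8 had an interval above 1 and 1 below, with a median of 0.09. Over all measured genes the shares were 7.79% above and 10.2% below. The lipid droplet protein Plin4 was at 1.31 (fold interval 2.04 to 3.03) and the sulfotransferase Sult1a1 at 0.89 (1.42 to 2.43), both with fractional counts. The receptor gene Nr3c1 was at -0.21 (0.814 to 0.920) and the metallothionein Mt1 at 0.03 (0.977 to 1.07). These lists were drawn up with results of the same libraries known, and their part in the Per1 ratio was not tested.

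Markers of other cell types moved between the libraries as well. In such tissue, fewer cells of a type, less RNA per cell and a different extent of the tissue taken cannot be told apart. All 12 oligodendrocyte markers were lower in ST (summed level 1060 RPKM in ST and 1290 in NT, median log2 ratio -0.30), among them Aspa at -0.56. So were all 12 microglial markers (158 in ST and 184 in NT, -0.24), among them P2ry12 at -0.51, all 12 endothelial and mural markers (90.1 in ST and 113 in NT, -0.33), among them Cdh5 at -0.42, and all 9 measured meningeal and matrix markers (15.2 in ST and 29.3 in NT, -0.94), among them Fmod at -1.75. Astrocyte markers were lower in 10 of 12 cases (1180 in ST and 1231 in NT, -0.08), with Aqp4 at -0.32. The 18 SCN peptides and identity genes had a median of 0.05, with 8 intervals above 1 and 4 below. Over all measured genes, 7.79% were above and 10.2% below. Among the clear intervals of the list, Cck at 0.54 and Gal at 0.48 were highest and Nms at -0.25 and Vip at -0.24 lowest. The 14 measured pan-neuronal genes had a median of -0.01, with Uchl1 at 0.13 and Syt1 at -0.11. Scaled on that pan-neuronal list, Per1 was at 0.22 on the log2 scale (fold interval 1.11 to 1.22). The part of the other cell types in the Per1 ratio was not tested.

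**Figure D5:**
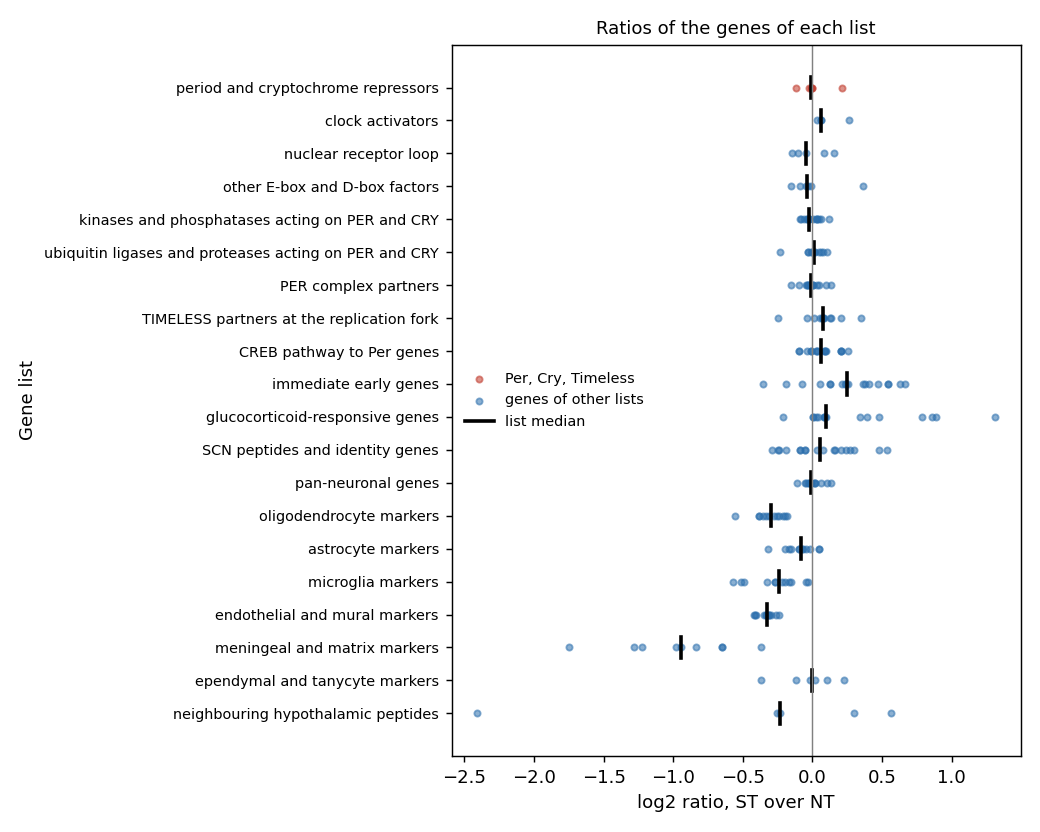
log2 ratio of ST over NT (horizontal axis) of every measured gene of each list (points) with the list's median (black bar). The 6 genes, in red, centre on 0 with Per1 to the right, immediate early genes have a median of 0.25, and the oligodendrocyte, microglial, endothelial and meningeal lists lie wholly below 0.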

How the data were processed

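One table of the whole series was used, with 1 ST and 1 NT library. Per the submitters' processing notes, CASAVA 1.8.2, TopHat 1.2, DESeq and the build mm9 were used, with no role or order. The sources used here name no counter, strand setting or filters. Per the file headers, the authors deposited estimated counts (not whole, tolerance 1e-06, for 42.4% of genes in ST and 43.1% in NT), RPKM values, RPM values that sum to 1000000, and their own fold change, its log2, p-values and adjusted p-values. The table's 3 mean columns were left out, since their names do not tie them to a sample.

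Estimated counts were rounded and divided by median-of-ratios size factors (ST 0.890, NT 1.12). The log2 ratio was taken with a pseudocount of 0.5, and folds without it. Intervals of ratios are exact Clopper-Pearson intervals of the share of ST in the summed count, rescaled. Levels carry exact Poisson intervals, and differences between genes intervals on the log scale from the 4 counts. Measured genes had a mean normalised count of at least 50. With 1 library per group, no p-value was computed. Calculations were tested on simulated data.

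Genes, lists and rules were chosen with earlier results of these data known. Named genes were the 6 genes, then in each list up to 2 with the highest and 2 with the lowest ratios among intervals clear of 1, the most abundant member, and the clock gene nearest in ratio to each of the 6. Others named in the text, such as Csnk1d, Btrc, Mcm6, Pcna, Lhx1 and Avp, were added for their known role. Some list genes go unnamed here but remain in list counts and medians. A planned comparison of protein sequences was not made. Python 3.11.15, scipy 1.17.1 and edgeR 4.0.16 (TMM factors only) were used.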

Additional observations from a re-analysis of the deposited data

How the results depend on the processing

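No paired analysis was possible because there is 1 library per group, which also means that leaving out a replicate could not be tried. All 42 values of the 6 genes under library totals, TMM factors, the pan-neuronal scale, a pseudocount of 5, unrounded counts, RPKM quotients and the authors' deposited log2 fold change stayed within the counting interval of the main value. That outcome was nearly given in advance, since all settings start from the same counts. Log2 ratios shifted by a median of 0.012 with library totals, 0.00013 with TMM factors and 0.0091 with the pan-neuronal scale. Per1 ranged between 0.211 and 0.224 on the log2 scale. It was the 1 gene of the 6 with an interval clear of 1 under each scaling. The interval of Per1 minus Timeless (0.33) held 0 once widened for the number of pairs. All 6 genes were measured with filters of 10 and without one, and 5 of them with a filter of 200, which Timeless did not pass. Genes at least 2-fold apart, 3 above and 33 below in ST, numbered 58 and 126 with a filter of 10, 1 and 18 with a filter of 200, 1249 and 1705 without a filter, and 45 and 124 with a 1.5-fold rule, by construction of those settings. All 80 list medians under another scaling or pseudocount moved by less than the typical counting interval of their members. Such small changes of setting made that likely. The 5 medians that changed sign belonged to the 6 genes, the PER complex partners and the pan-neuronal list, all within 0.01 of 0. Depth limits Timeless most, with a fold interval of 0.735 to 1.15.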

Other observations

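Neighbouring tissue and the ventricular wall gave further values, which enter no comparison of the 6 genes. Of 6 measured ependymal and tanycyte markers, 3 lay above and 3 below 0 on the log2 scale, with a median of 0.000184 and summed levels of 205 RPKM in ST and 205 RPKM in NT. The motile cilia factor Foxj1 was at 0.02 (fold interval 0.939 to 1.09) and Col23a1 at -0.37 (0.610 to 0.975). Of 5 measured neuropeptides of neighbouring hypothalamus, Trh was at 0.56 (fold interval 1.39 to 1.57) and Oxt at 0.30 (1.19 to 1.27), whereas Pomc, the precursor of melanocortins, was at -2.41 (0.157 to 0.224) and Cartpt at -0.25 (0.708 to 0.993). Oxt had fractional counts.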
